A study of Mus musculus with 24 samples.

Results

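The 5 genes described are Pnliprp1, Duoxa1, Tmeff2, Ptges and Nebl, chosen among 19040 genes tested in mouse liver because their signals rose very strongly after a carcinogen and tumour promoter treatment in wild type, or were lost in treated livers without Foxa1 and Foxa2. The members were chosen by their measured levels, the treatment difference in WT females and the genotype differences in treated mice, and are sorted by whether the rise was also seen without these factors. The data are 24 single-colour Agilent arrays of liver RNA, 4 in each of 6 groups. The groups were male and female double knockouts (dKO) for Foxa1 and Foxa2 that had been treated, untreated dKO females, treated wild-type (WT) males and females, and untreated WT females. Treated mice received 1 injection of diethylnitrosamine (DEN, 20 mg/kg) at an age of 14 to 15 days and then 8 injections of TCPOBOP (3 mg/kg) spaced by 2 weeks. No untreated male was sampled here, the labels call all 24 samples liver tumor, untreated ones included, and neither the strain, the Cre line behind the deletion nor the age at collection is given in the sources used here. No source says that each replicate is its own animal, and p-values therefore speak only to the spread seen among these samples, which may be technical.

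Foxa1 and Foxa2 are forkhead transcription factors that bind closed chromatin and help switch on hepatocyte genes. DEN is activated inside hepatocytes to a DNA-damaging agent and starts liver tumours, and TCPOBOP activates the nuclear receptor CAR, which induces drug-metabolising enzymes and promotes the growth of such tumours. None of the 5 genes is a typical hepatocyte gene. Pnliprp1 encodes a lipase-related protein secreted by the exocrine pancreas, Duoxa1 the factor that carries dual oxidase 1 out of the endoplasmic reticulum, and Tmeff2 a membrane protein with follistatin-like and EGF-like domains that is abundant in brain and prostate. Ptges makes prostaglandin E and is inducible in inflammation, and Nebl encodes nebulette, an actin-binding protein of the cardiac Z disc that also has a shorter form outside muscle.

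Levels are given as log2 of the processed signal minus log2 of the 75th percentile of the same array, so that 0 is the 75th percentile of all probes and each unit is a doubling. A probe "above background" was well above background by the scanner software's test. When all 4 arrays of a group fell below it, the fold is a lower limit and is written "at least". Between 50.4% and 68.4% of spots were above background per array, and the number of arrays limits the precision. The mean share was highest in treated dKO females, at 67.2%, against 59.4% to 62.1% in the other groups. The deletion was visible in the arrays: Foxa1 was below background on all 12 dKO arrays, and for Foxa2 dKO minus WT was between -10.07 and -7.99 on the log2 scale in the 3 comparisons of genotype. Hepatocyte markers were bright in every group, with all 16 measured markers above background on every array. Since the samples are bulk tissue, fewer cells of a type and less RNA per cell cannot be told apart in any of the values that follow.

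Where each probe lies is known from the files (mm9) and the accession it was designed on, and the annotation used here does not say which exon holds it. The 1 Pnliprp1 probe lies within chr19:58815028-58815621 on the plus strand, a span of 594 bases that is longer than the probe. Tmeff2 had 3 probes on chromosome 1, plus strand, at 51242393 to 51242452 (the brightest), 51238653 to 51238712 and 51243808 to 51243867. The others lie on the minus strand of chromosome 2. Ptges had 1 probe at 30747838 to 30747897. Nebl had 3, at 17266211 to 17266270 (the brightest), 17649411 to 17649470 and 17268970 to 17269029. Duoxa1 had 2, at 122129336 to 122129395 (the brightest) and 122129785 to 122129844. Of the 10 probes, 9 passed the filter of at least 4 arrays above background, and the brightest probe stands for its gene unless stated.

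Promoter windows from RefSeq (GRCm38.p6, 300 bases around the start, both strands searched) are shown because the rise of Pnliprp1 and Duoxa1 was absent from dKO livers while that of Ptges was not. Capitals mark matches to 3 forkhead motifs, which were the common core TGTTTAC, a variant of it written TATTTAC, and another variant written TGTTTGC. The Pnliprp1 window is chr19:58728637-58728936 (plus strand), that of Duoxa1 chr2:122313681-122313980 (minus), that of Tmeff2 chr1:50927273-50927572 (plus) and that of Ptges chr2:30903248-30903547 (minus).
Pnliprp1: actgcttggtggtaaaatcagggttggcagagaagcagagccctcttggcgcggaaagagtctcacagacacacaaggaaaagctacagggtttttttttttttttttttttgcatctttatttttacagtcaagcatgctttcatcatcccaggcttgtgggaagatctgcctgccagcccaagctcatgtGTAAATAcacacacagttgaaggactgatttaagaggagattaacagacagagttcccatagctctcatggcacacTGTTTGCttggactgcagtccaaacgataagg
Duoxa1: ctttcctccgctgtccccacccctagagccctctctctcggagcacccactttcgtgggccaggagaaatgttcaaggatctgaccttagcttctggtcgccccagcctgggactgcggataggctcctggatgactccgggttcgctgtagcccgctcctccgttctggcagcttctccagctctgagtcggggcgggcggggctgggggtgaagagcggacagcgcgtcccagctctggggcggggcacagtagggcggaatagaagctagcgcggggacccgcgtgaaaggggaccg
Tmeff2: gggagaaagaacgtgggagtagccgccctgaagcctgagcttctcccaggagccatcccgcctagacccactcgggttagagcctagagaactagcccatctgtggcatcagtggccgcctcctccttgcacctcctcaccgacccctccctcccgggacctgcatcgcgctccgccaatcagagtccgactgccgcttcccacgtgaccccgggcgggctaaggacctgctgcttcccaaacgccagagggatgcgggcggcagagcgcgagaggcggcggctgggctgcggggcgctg
Ptges: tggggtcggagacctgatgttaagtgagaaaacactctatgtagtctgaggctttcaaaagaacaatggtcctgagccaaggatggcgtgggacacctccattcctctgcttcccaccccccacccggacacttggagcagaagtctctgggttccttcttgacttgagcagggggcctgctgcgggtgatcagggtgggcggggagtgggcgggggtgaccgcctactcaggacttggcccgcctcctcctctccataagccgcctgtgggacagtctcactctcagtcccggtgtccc
The Pnliprp1 window held 2 matches at separate places, GTAAATA at base 193, which is TATTTAC on the opposite strand, and TGTTTGC at base 269. No match lay in the windows of Duoxa1, Tmeff2 or Ptges, nor in the 4 alternative windows of Nebl. Of 32851 such windows, 11.2% held at least 1 of the 3 motifs, 3.65% TGTTTAC, 3.04% TATTTAC and 5.07% TGTTTGC. A pair of hexamers bound by nuclear receptors were searched as well. AGGTCA, found in 16.3% of windows, matched on the opposite strand of the Duoxa1 window at base 82 and in 1 Nebl window, and AGTTCA, found in 14.0%, matched in 1 other Nebl window. These matches describe letters in a window, and binding was not measured.

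The induction of Pnliprp1 was the largest of all 19040 genes in WT females, and nearly all of it was missing in dKO. Treated dKO males had -2.22, -4.82, -3.54 and -3.24, with 3 of 4 arrays above background, and treated WT males had 4.60, 6.05, 6.60 and 6.12. The gene was faint on every dKO array and among the bright ones on every treated WT array, and the groups did not come near each other. Treated dKO females had -4.42, -6.75, -4.02 and -5.07 (3 of 4 above background), against -6.04, -6.59, -4.87 and -5.22 in untreated dKO females (1 of 4). Treated WT females had 5.02, 2.91, 4.46 and 4.39, and untreated WT females had -6.71, -6.71, -4.54 and -6.43 (1 of 4).

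Between treated and untreated females the Pnliprp1 difference was 0.61 ± 0.67 (SE) in dKO and 10.29 ± 0.67 in WT, where 1 of 4 untreated arrays was above background in each genotype. With the other 3 untreated WT arrays set at the lowest level the scanner told from background, where their own was lower, the WT rise was at least 525-fold. dKO minus WT was -9.26 ± 0.67 in treated females, the second lowest of all genes after Foxa2, and -9.30 ± 0.67 in treated males, the lowest. These values helped to choose the gene and are a description. The authors' deposited table gives a signed fold of 1219.538 for treated over untreated WT females and 1.595 for the same comparison in dKO.

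Duoxa1 was seen on treated WT arrays only. It was below background on all 8 treated dKO arrays, where levels lay between -8.37 and -6.79, and on the 4 untreated dKO arrays (-7.54 to -5.98). Treated WT males had -3.63, 2.45, 3.08 and 2.38, and treated WT females had -3.04, -3.34, -0.73 and -2.03, all above background. In untreated WT females all 4 arrays were below background, at -6.69, -8.01, -7.68 and -6.37. The treated WT arrays were far apart, and replicate 1 of the males was lower than all 4 females.

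Treated WT females were at least 6.98-fold higher than untreated ones for Duoxa1 (fitted difference 4.90 ± 0.98). In treated mice dKO was at least 13.7-fold lower than WT in females and at least 78.3-fold lower in males. No fold is given for treatment in dKO females, since both groups were below background. The second Duoxa1 probe was above background on 1 of 24 arrays, a treated WT male, and did not enter the fit. As the values came from the contrasts that chose the gene, they carry no test.

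**Figure D1:**
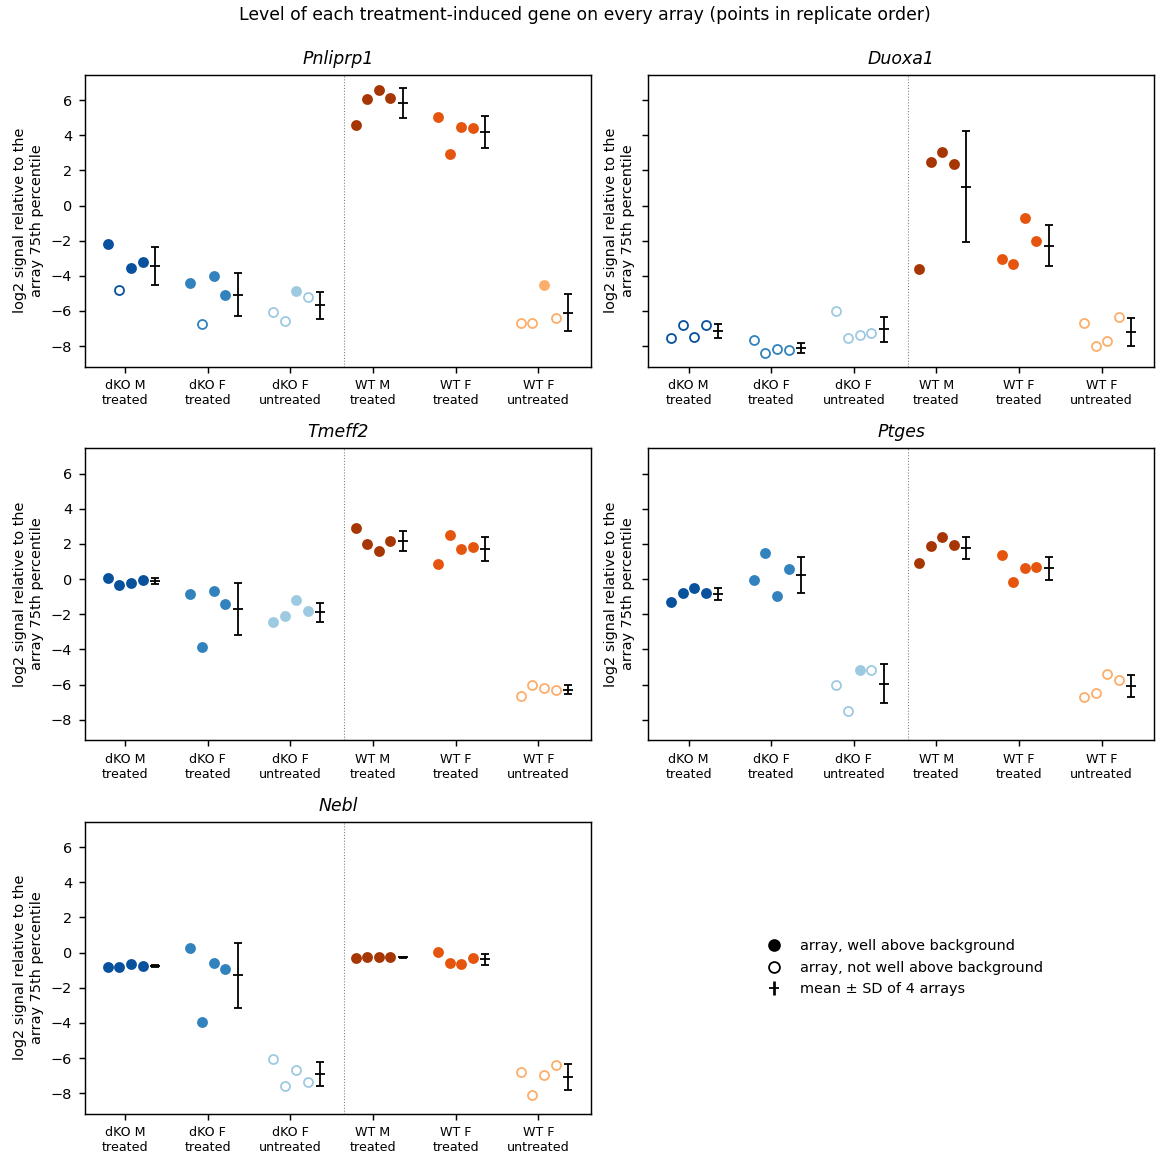
Level of each gene on every array, as log2 signal relative to the 75th percentile of the array, in 6 groups of 4 arrays, where filled points were well above background, open points were not, and the bar beside them is the mean ± SD. Pnliprp1 and Duoxa1 are high on treated WT arrays alone, Tmeff2 is also seen in untreated dKO females, and Ptges and Nebl are high in all 4 treated groups.

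Tmeff2 followed a course of its own, since it was already on in dKO livers that had received no treatment. Untreated dKO females had -2.44, -2.12, -1.20 and -1.79, all above background, and untreated WT females had -6.64, -6.04, -6.18 and -6.31, all below it. Treated dKO females had -0.84, -3.86, -0.66 and -1.42, which overlaps the untreated dKO range. Treated WT females had 0.86, 2.53, 1.74 and 1.81, above every dKO female. Among males, treated dKO had 0.09, -0.31, -0.23 and -0.04, and treated WT had 2.89, 1.98, 1.59 and 2.18.

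Treatment went with a Tmeff2 difference of 0.19 ± 0.50 in dKO females. It went with 8.03 ± 0.50 in WT females, the second largest rise of all genes and at least 113-fold. In treated mice dKO minus WT was -3.43 ± 0.50 in females and -2.29 ± 0.50 in males, without overlap in either sex. Levels therefore ran in the order untreated WT, untreated and treated dKO females, treated dKO males and treated WT of both sexes, where untreated and treated dKO females overlapped, as did treated WT males and females.

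The genotype difference without treatment was not among the contrasts that chose the genes, although it shares the untreated WT arrays with one of them. By limma with Benjamini-Hochberg adjustment over all genes, 1 of the 5 genes passed at an adjusted p under 0.05 in untreated females, Tmeff2, and 9.82% of all genes did. Tmeff2 was at least 9.20-fold higher in dKO than in WT (fitted difference 4.41 ± 0.50, adjusted p = 8.93e-06, all 4 dKO arrays above all 4 WT arrays). Within the 2 slides that held both groups the differences were 4.52 and 4.98. Bile duct markers were also higher in untreated dKO than in WT for 7 of 13, with sums of 17.4 to 26.7 in dKO and 8.96 to 9.71 in WT, in multiples of the 75th percentile, and so were 5 of 12 stellate cell and fibroblast markers, where 5.19% of all genes were higher. Macrophage markers were higher for 2 of 13 (11 at an unadjusted p under 0.05, a share not counted over all genes). Macrophage sums were 152 to 214 in dKO and 56.2 to 112 in WT, without overlap. The part of all these markers in the Tmeff2 difference was not tested. The other 4 genes missed the threshold, with differences of 0.42 ± 0.67 for Pnliprp1 (adjusted p = 0.753), 0.13 ± 0.52 for Ptges (0.909), and no fold for Nebl and Duoxa1, which were below background in both groups.

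The separate Tmeff2 probes did not all show this. The second probe gave 3.73 ± 0.54 for dKO minus WT in untreated females (adjusted p = 0.000157), with all 4 dKO arrays and 1 of 4 WT arrays above background. The third probe, the farthest along the plus strand, was below background on all 8 of these arrays. It was above background on all 8 treated WT arrays, at means of -2.29 ± 0.41 (SD, n = 4) in males and -2.67 ± 0.57 in females, but on 0 of 4 treated dKO males and 2 of 4 treated dKO females. In WT females it was at least 5.34-fold higher with treatment, and in treated males at least 7.60-fold lower in dKO. This dimmer probe thus stayed at or near background in every dKO group, and whether it reports another transcript form was not tested.

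**Figure D2:**
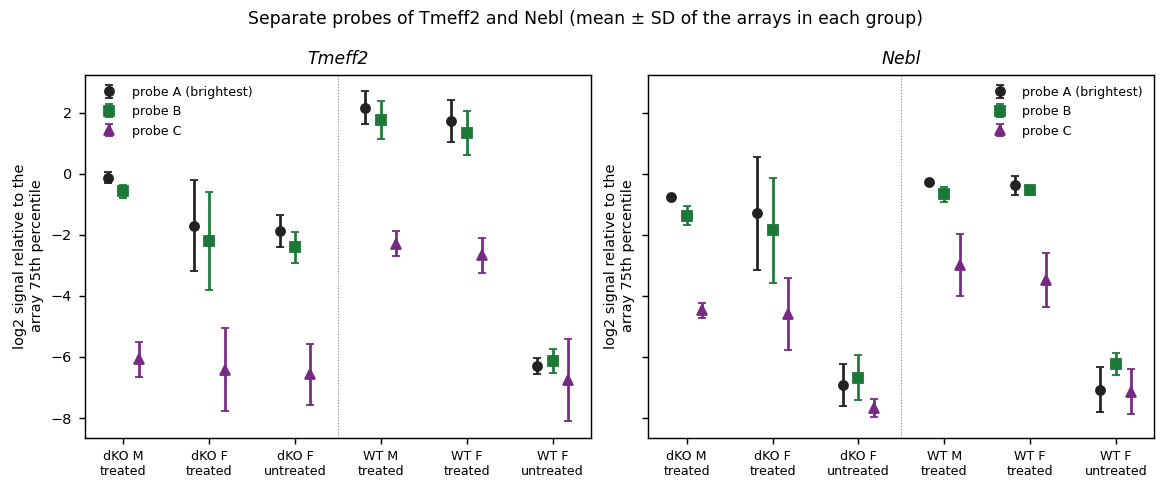
Mean log2 signal relative to the 75th percentile of the array, ± SD over the arrays of a group (4, or 3 for probe C of Nebl in untreated dKO females), for the 3 probes of Tmeff2 and the 3 of Nebl. Tmeff2 probes A and B stand above untreated WT females in all 3 dKO groups while probe C does not, and the 3 Nebl probes share 1 order of treated over untreated.

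Ptges rose in both genotypes. Treated dKO females had -0.07, 1.47, -0.98 and 0.55, and untreated dKO females had -6.00, -7.50, -5.17 and -5.15, with 1 of 4 above background. Treated WT females had 1.39, -0.19, 0.61 and 0.67, against -6.70, -6.49, -5.43 and -5.75 in untreated WT females, none above background. Every treated array stood several units above every untreated one. Treated dKO males had -1.33, -0.81, -0.51 and -0.78, all below the treated WT males at 0.91, 1.89, 2.40 and 1.94.

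The Ptges difference between treated and untreated females was 6.20 ± 0.52 in dKO and 6.71 ± 0.52 in WT. With untreated arrays below background set at their limits, these were at least 36.1-fold in dKO and at least 51.3-fold in WT. It ranked sixth among all genes in each genotype. In treated females dKO minus WT was -0.38 ± 0.52 with overlapping groups, and in treated males it was -2.64 ± 0.52 with separate groups. So Ptges was on in treated livers of both genotypes, at a lower level in dKO males than in WT males.

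Nebl also rose in both genotypes, to nearly one level. Treated dKO females had 0.25, -3.96, -0.57 and -0.91, against -6.07, -7.60, -6.66 and -7.35 in untreated dKO females. Treated WT females had 0.01, -0.59, -0.65 and -0.29, and untreated WT females had -6.77, -8.11, -6.98 and -6.41. All untreated arrays were below background and all treated ones above it. Treated dKO males had -0.85, -0.80, -0.67 and -0.76, a narrow band just under that of treated WT males at -0.30, -0.27, -0.22 and -0.24.

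For Nebl treated dKO females were at least 13.4-fold and treated WT females at least 26.1-fold higher than untreated ones (fitted differences 5.63 ± 0.58 and 6.68 ± 0.58). dKO minus WT was -0.91 ± 0.58 in treated females, with overlap (-0.03 without dKO replicate 2), and -0.51 ± 0.58 in treated males, where the groups were apart. Both other probes were brighter with treatment in each genotype as well. The second gave at least 9.12-fold in dKO and at least 23.4-fold in WT females. The third gave at least 1.81-fold in dKO, where 1 untreated array was dropped as an outlier spot and the other 3 were below background, and at least 3.06-fold in WT.

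Read together as the rule used them, all 5 genes had treated WT females apart from untreated WT females, in a comparison where 17.2% of all genes were called. With treatment in dKO females 2 of 5, Ptges and Nebl, stood more than 4-fold above untreated, where 37.9% of genes were called by adjusted p in either direction and 2.51% had a fitted difference over 2 on the log2 scale. In treated females dKO and WT did not overlap for 3 of 5 (Pnliprp1, Duoxa1 and Tmeff2, 29.9% of genes called), and in treated males for 5 of 5 (25.3% called). The shares called by adjusted p and the counts of groups apart are different measures, and since these contrasts chose the genes, nothing is read from the counts. The rule set no numeric limit. Between Tmeff2 and Ptges in the ranking of WT females stood, among others, Sult1e1 (7.60, an estrogen sulfotransferase) and S100a8 (7.10, a calcium-binding protein of neutrophils), and just after Nebl came Elapor1 (6.30). Sult1e1, like Tmeff2, was also higher in untreated dKO (7.91) and changed by -0.98 with treatment in dKO.

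**Figure D3:**
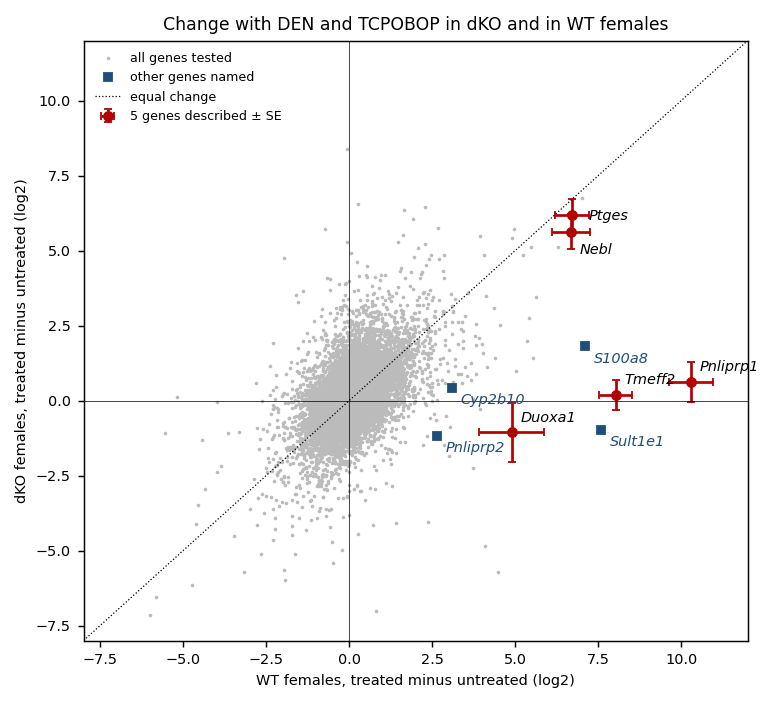
Difference between treated and untreated females on the log2 scale, dKO on the vertical and WT on the horizontal axis, for all 19040 genes (grey) and the 5 genes with SE bars, all as fitted and not as bounds. Ptges and Nebl lie near the line of equal change while Pnliprp1, Tmeff2 and Duoxa1 lie near or below 0 in dKO.

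The gap between the treatment differences in the 2 genotypes, dKO minus WT, was -9.68 ± 0.94 for Pnliprp1, -7.83 ± 0.71 for Tmeff2, -0.51 ± 0.74 for Ptges and -1.06 ± 0.83 for Nebl. By fitted differences 28 genes rose over 16-fold in WT females, the 5 described among them. Of these 28, 9 (32.1%) also did so in dKO females, Ptges and Nebl included. Another 7 of the 28 stayed under a 2-fold rise there, Pnliprp1, Tmeff2 and Duoxa1 included. In dKO females 51 genes in all rose over 16-fold. These counts do not use bounds, and Duoxa1 enters by its fitted 4.90 although its bound was 6.98-fold. Some spread within groups fell on single arrays. Replicate 2 of the treated dKO females was the lowest of its group for Pnliprp1, Tmeff2 and Nebl and the highest for Ptges, so the genes did not move together on it. Of all 24 arrays it also had the lowest slope fitted to its spike-in controls (0.923) and the highest 75th percentile. Their part in its values was not tested. Without that array the differences between treated and untreated dKO females were 0.91 for Tmeff2 and 6.51 for Nebl.

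Sex was compared in treated mice, males minus females, a contrast that the choice of genes did not use although it shares its arrays. In treated WT, 1 of 5 genes passed, Duoxa1, beside 6.17% of all genes. Its difference was 3.35 ± 0.98 (limma, adjusted p = 0.0459), but the groups overlapped, and the 2 slides that held both sexes gave -2.90 and 5.11. The call was lost under 11 of 20 alternatives, and without male replicate 1 the difference was 4.92. Pnliprp1 (1.65 ± 0.67, adjusted p = 0.158), Ptges (1.16 ± 0.52, 0.212), Tmeff2 (0.43 ± 0.50, 0.703) and Nebl (0.12 ± 0.58, 0.941) missed the threshold.

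In treated dKO, males minus females, 1 of 5 passed, Tmeff2, beside 20.4% of all genes. Its difference was 1.57 ± 0.50 (limma, adjusted p = 0.0329), with all 4 males above all 4 females. The call was lost under 11 of 20 alternatives. Without female replicate 2 it was 0.85 and no longer passed (adjusted p = 0.117), and within the 2 slides that held both sexes it was 0.44 and 0.52. The other values were 1.61 ± 0.67 for Pnliprp1 (adjusted p = 0.0907), -1.10 ± 0.52 for Ptges (0.139) and 0.53 ± 0.58 for Nebl (0.557), and Duoxa1 was below background in both sexes.

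The test of whether the genotype difference itself varied with sex, males minus females, passed for 1 of 5, Ptges, beside 12.5% of all genes. Its estimate was -2.27 ± 0.74 (limma, adjusted p = 0.0490). Both of its genotype differences were among the contrasts behind the choice, so it is no independent evidence, and the call was lost under 18 of 28 alternatives. Tmeff2 (1.14 ± 0.71, adjusted p = 0.300) and Pnliprp1 (-0.03 ± 0.94, 0.989) missed the threshold, as did Nebl (0.40 ± 0.83, 0.791) and Duoxa1 (adjusted p = 0.261), for which both treated dKO groups were below background.

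The gene whose level was most like that of Duoxa1 over the 24 arrays was Pnliprp2, the galactolipase that lies directly beside Pnliprp1 on chromosome 19, among 18975 genes compared (Pearson r = 0.986, a description over arrays that share the groups). Pnliprp2 was below background on all 12 dKO arrays, where it lay between -8.32 and -5.41. Treated WT males had -4.62, -0.75, -0.61 and -1.10, and treated WT females had -4.52, -5.49, -3.34 and -4.83, with 3 and 2 of 4 above background. In untreated WT females all 4 were below background. Replicate 1 of the treated WT males was the low one here too.

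Pnliprp2 was picked for this likeness, so its values carry no test. It was at least 1.46-fold higher in treated than in untreated WT females, and males minus females of treated WT was 2.77 ± 0.70. Next to Duoxa1 in likeness came Car4, a membrane-bound carbonic anhydrase (r = 0.917), and Bpifa5 (r = 0.914). Of the neighbours on the other side of Pnliprp1, Pnlip, the main pancreatic lipase, did not pass the filter on dim probes. Beside Duoxa1, its partner Duox1 was above background in all 6 groups, averaging -1.92 ± 1.49 in treated and -1.06 ± 0.60 in untreated dKO females, and -1.39 ± 0.42 in treated and -1.02 ± 0.48 in untreated WT females (SD, n = 4 each). Neither Duox1 nor Duox2 passed in the treatment or genotype comparisons, and Duoxa2 did not enter the fit.

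**Figure D4:**
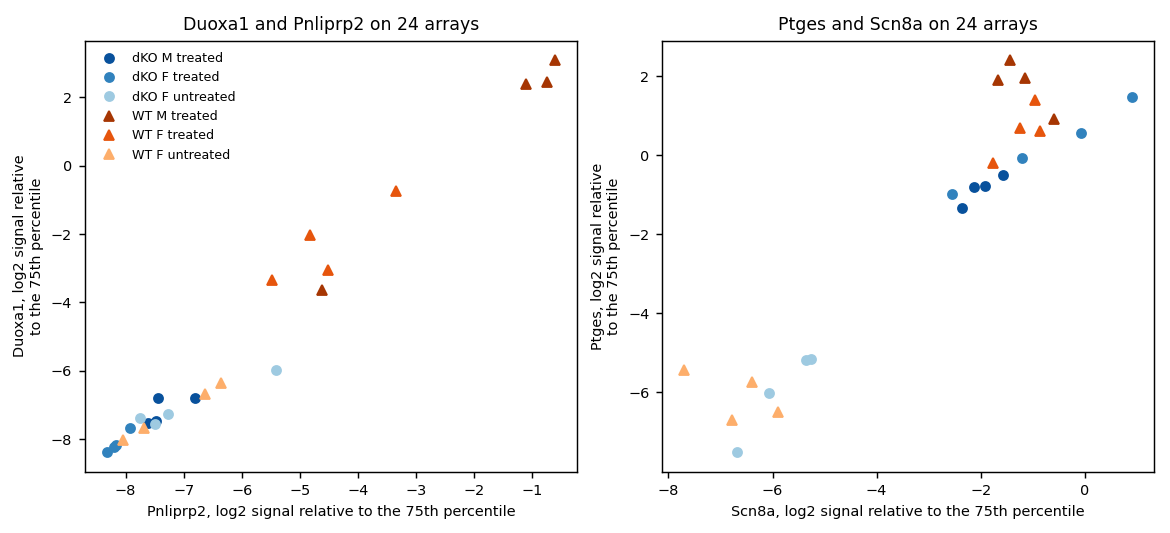
Duoxa1 against Pnliprp2 and Ptges against Scn8a on the 24 arrays, both axes in log2 signal relative to the 75th percentile of the array, circles for dKO and triangles for WT. In the first panel replicate 1 of the treated WT males lies close to the treated WT females and away from the other 3 males, and in the second all 16 treated arrays lie apart from the 8 untreated ones.

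For the remaining genes the closest patterns were these, each with Pearson r over 24 arrays. Pnliprp1 was most like Exosc8, an RNA exosome subunit (0.942), Pxdn, a peroxidase of the extracellular matrix (0.938), and Cyfip2, an actin regulator (0.932), whose own rises in WT females were far smaller, at 0.86, 2.36 and 2.13. Tmeff2 was most like Fam171a1 (0.922), the CAR target Cyp2b10 (0.919) and a cDNA without a gene symbol (0.914). Ptges was most like Scn8a, a neuronal sodium channel (0.949), and also like the endothelial proteoglycan Esm1 (0.944). Nebl was most like 9230116L04Rik (0.946), the Wnt receptor Fzd10 (0.934) and 1810053B23Rik (0.934). Among the 5 genes r ran between 0.48 (Nebl and Duoxa1) and 0.92 (Ptges and Nebl).

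Scn8a, like Ptges, was higher on every treated than on every untreated array. Treated dKO females averaged -0.73 ± 1.49 and untreated ones -5.85 ± 0.67, and treated WT females averaged -1.20 ± 0.41 and untreated ones -6.69 ± 0.76 (SD, n = 4 each). Cyp2b10, which reads out CAR activity and was picked for its likeness to Tmeff2, was 4.12 ± 1.54 in treated and 3.69 ± 0.18 in untreated dKO females, and 5.61 ± 0.37 in treated and 2.51 ± 0.11 in untreated WT females. The treatment difference was 0.43 ± 0.45 in dKO females and 3.09 ± 0.45 in WT females. Without treatment dKO minus WT was 1.17 ± 0.45 for Cyp2b10. In treated females dKO minus WT was -1.49 ± 0.45 for Cyp2b10, lower in dKO as for Tmeff2, although the Cyp2b10 groups overlapped. In treated males Cyp2b10 was 5.23 ± 0.12 in dKO and 5.65 ± 0.20 in WT (SD, n = 4 each). That difference was -0.42 ± 0.45, and the male groups were apart, as they were for Tmeff2.

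Genes that work with the 5 were taken from lists that exclude them. Of all genes, 16.4% were higher and 21.4% lower with treatment in dKO females, and 8.49% higher and 8.72% lower in WT females, and the list counts stand beside these shares. With a term for array position 123 genes were higher and 146 lower in dKO, and most list calls in dKO were lost. All treated dKO females lay at position 4 of their slides and all untreated ones at 2 or 3. Array position and treatment therefore cannot be fully told apart in dKO. Treated WT arrays lay at position 1 or 2 and treated dKO arrays at 3 or 4. Array position and genotype therefore cannot be fully told apart in treated mice either. Of 25 measured prostaglandin and leukotriene genes, 7 were higher and 4 lower in treated than in untreated dKO females (median 0.13, against -0.07 for all genes), and 7 higher and 3 lower in WT females (median 0.16, against -0.06). Mgst2, a glutathione transferase that makes leukotriene C, rose by 6.34 ± 0.53 in dKO and 1.66 ± 0.53 in WT, and the prostanoid exporter Abcc4 by 3.08 ± 0.42 and 2.34 ± 0.42. Hpgds, the haematopoietic prostaglandin D synthase, rose by 2.26 ± 0.50 in dKO and was at least 1.18-fold higher in WT. The receptor gene Ptger3 was at least 2.69-fold lower in treated WT females. Ptger4 was at least 1.60-fold higher in treated dKO females. The other prostaglandin E synthases, Ptges2 and Ptges3, were not called in either genotype, and Ptgs2, the inducible cyclooxygenase upstream of Ptges, did not pass the filter. In untreated females 3 of the 25 were higher in dKO and 0 lower.

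Of 13 measured dual oxidase and NADPH oxidase genes, 5 were higher and 1 lower with treatment in dKO females and 4 higher and 0 lower in WT females (medians 1.03 and 0.99). Noxa1, an activator of NADPH oxidase 1, was at least 16.3-fold higher in dKO and at least 2.27-fold higher in WT. The phagocyte oxidase genes Ncf4 (1.61 ± 0.43 in dKO and 1.83 ± 0.43 in WT) and Ncf1 (1.18 ± 0.37 and 1.39 ± 0.37) rose in both. Rac2 rose in WT (1.52 ± 0.44) and Cybb in dKO (1.59 ± 0.57).

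Of 9 measured lipase family genes, 0 were higher and 2 lower in dKO (median 0.36) and 2 higher and 1 lower in WT (median -0.03). The 2 higher in WT were Lpl, lipoprotein lipase (2.41 ± 0.22), and Pnliprp2, which passed the filter through treated WT arrays alone and carries no test. Lipg, endothelial lipase, was lower in both (-1.13 ± 0.28 in dKO and -1.34 ± 0.28 in WT). Lipc, hepatic lipase, fell by 1.69 in dKO. Of 16 nebulin family and Z disc genes, 2 were higher and 5 lower in dKO and 0 higher and 2 lower in WT (medians -0.13 and 0.10). Neb, nebulin, was lower in dKO (-1.75 ± 0.33), as was the Z disc protein gene Csrp3 (-2.12 ± 0.69), and Tpm2, a tropomyosin, was lower in both (-1.15 ± 0.24 in dKO and -2.10 ± 0.24 in WT).

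A list of activin, nodal and PDGF signalling genes, drawn up for the follistatin-like domain of Tmeff2, also held the enzyme gene Sardh. Of its 18 measured genes, 5 were higher and 3 lower in dKO and 1 higher and 1 lower in WT (medians -0.10 and -0.21). Inhbb, an activin subunit, rose by 2.24 ± 0.46 in dKO and Pdgfa by 0.51 ± 0.18 in dKO and 0.60 ± 0.18 in WT. In untreated females, where Tmeff2 was higher in dKO, Fst, follistatin, was higher too (2.18 ± 0.57, adjusted p = 0.0178), and 3 of the 18 were higher and 2 lower. Of 33 CAR targets, 12 were higher and 6 lower with treatment in dKO and 9 higher and 0 lower in WT (medians 0.14 and 0.56). Cyp2c55 rose by 2.75 ± 0.62 in dKO and 5.41 ± 0.62 in WT, and Akr1b7 by 2.51 ± 0.56 and 4.54 ± 0.56.

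Markers of other cell types moved between the same groups. Pnliprp1 and Pnliprp2 are acinar genes, but of 28 exocrine pancreas markers only 16 passed the filter, and Pnlip, Prss1, Prss2, Cpa1, Cpb1 and Ptf1a were not among them. The summed signal of the 16, in multiples of the 75th percentile, ran between 5.66 and 7.05 in treated dKO males, 3.17 and 6.76 in treated dKO females and 7.63 and 8.57 in untreated dKO females. In treated WT males it ran between 6.12 and 8.11, in treated WT females between 4.61 and 7.61 and in untreated WT females between 4.42 and 6.80, so that treated and untreated WT females overlapped. With treatment 2 of the 16 were higher and 1 lower in dKO, namely the elastase gene Cela1 (3.64), Bhlha15 (3.54 ± 0.61), a transcription factor of secretory cells, and the amylase gene Amy2a5 (-2.21). In WT 2 were higher and 0 lower, Bhlha15 (2.37 ± 0.61) and Pnliprp2. Since Pnliprp2 passed the filter through treated WT arrays alone, its call carries no test.

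Neutrophil markers were higher for 3 of 8 in each genotype, with summed signals of 5.99 to 30.6 in treated and 1.86 to 5.79 in untreated dKO females, and 4.92 to 20.5 in treated and 0.58 to 2.08 in untreated WT females. S100a8 among them rose by 7.10 ± 1.12 in WT, while its 1.81 ± 1.12 in dKO missed the threshold (limma, adjusted p = 0.216), and in treated females dKO minus WT was -3.24 ± 1.12 (adjusted p = 0.0347). Its treated WT males had -2.12, 4.29, 5.09 and 4.22, with the same low replicate 1 as Duoxa1. Macrophage markers were higher for 5 of 13 in dKO and 7 of 13 in WT, with sums of 176 to 421 in treated and 152 to 214 in untreated dKO females, and 181 to 298 in treated and 56.2 to 112 in untreated WT females. The part of these cells in the levels of the 5 genes was not tested.

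In dKO, 6 of 13 bile duct markers were higher with treatment and 0 lower, with sums of 77.4 to 252 in treated and 17.4 to 26.7 in untreated females. In WT, 3 were higher and 1 lower, with sums of 11.1 to 23.6 in treated and 8.96 to 9.71 in untreated females. Stellate cell and fibroblast markers were higher for 8 of 12 and lower for 1 in dKO, and higher for 0 and lower for 1 in WT. Of 16 hepatocyte markers, 0 were higher and 9 lower with treatment in dKO, with sums of 1731 to 3650 in treated and 3513 to 3843 in untreated females, and 0 of 16 were called in WT by limma, where 2 had an unadjusted p under 0.05. With array position in the fit 0 of 16 were called lower in dKO by limma. At an unadjusted p under 0.05 in that fit 3 were lower, beside 2136 of all 19040 genes. With only the arrays compared 3 of the 16 were called lower. These shifts accompany the dKO values of all 5 genes, and their part in them was not tested.

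**Figure D5:**
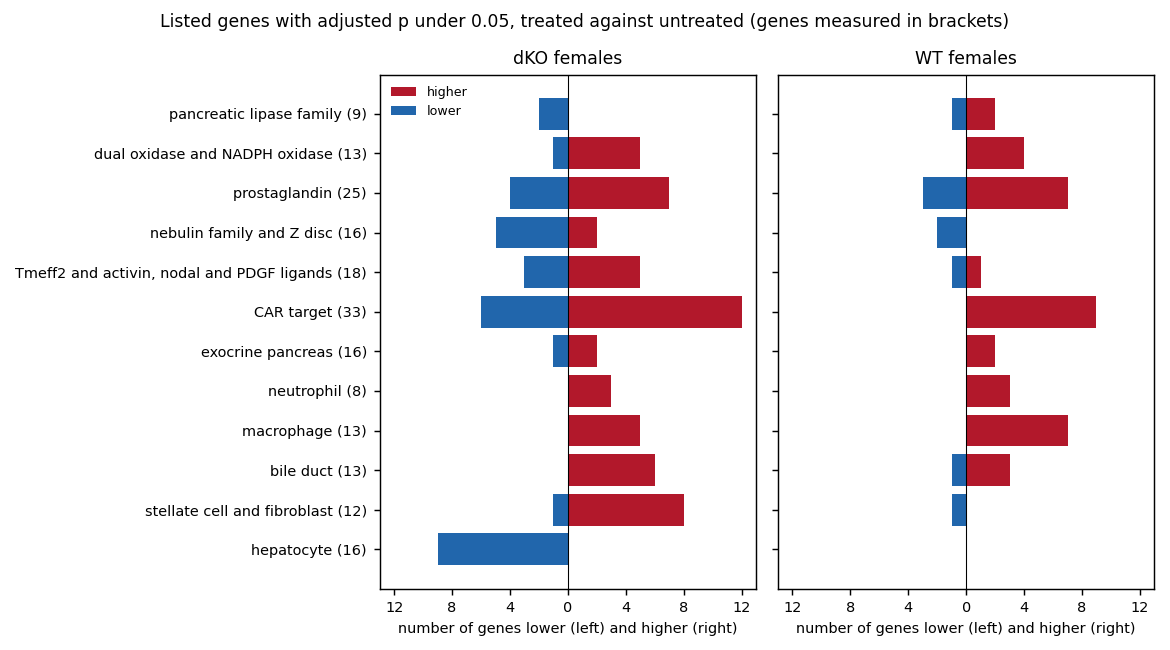
Number of listed genes with an adjusted p under 0.05 between treated and untreated females, lower to the left and higher to the right, in dKO and in WT, with the genes measured in brackets. CAR targets have 12 higher in dKO and 9 in WT, and hepatocyte markers have 9 lower in dKO and 0 in WT.

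Of the genes that lie next to the 5 on the chromosomes, those named here were chosen after their values were seen. Their values therefore carry no test. Beside Tmeff2, Cavin2, a caveolar coat protein, differed with treatment by 1.50 ± 0.19 in WT females and 0.25 ± 0.19 in dKO females. In treated mice dKO minus WT was -1.26 ± 0.19 in females and -1.42 ± 0.19 in males for Cavin2. Without treatment its genotype difference was -0.01 ± 0.19. Plxdc2, beside Nebl, rose with treatment by 1.54 ± 0.31 in dKO and 1.08 ± 0.31 in WT females. Directly beside Ptges lie Prrx2 and Tor1b. Prrx2 was higher with treatment in dKO (1.79 ± 0.44) and Tor1b lower in WT (-0.36 ± 0.12).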

How the data were processed

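The arrays were scanned single-colour (Cy3) after amplification, per the labels' protocols, and read with Agilent Feature Extraction, version 10.5.1.1 per the file headers and 9.53 per the submitters' processing notes. Per the file headers the deposited values are processed intensity per spot, background-corrected. A second deposited file lists, as the authors computed them, signed folds (a score, negative for a fall) for each comparison, by a method that its header does not give. Here log2 of the processed signal was taken minus log2 of each array's 75th percentile. Control spots and outlier spots (72 to 127 per array) were left out. Of 41174 probes, 28051 were well above background on at least 4 arrays, and the brightest probe stood for each of 19040 genes. No spot was saturated. The 6 groups of 4 were fitted together with limma 3.58.1 in R 4.3.3, with Benjamini-Hochberg adjustment over all genes at 0.05, and no replicate block. Over 60 pairs of same-numbered arrays the correlations ran from -0.35 to 0.34 (median -0.04), and 10 were above 0.1. Arrays of different numbers were not compared with these, so whether replicate numbers pair samples is not settled. Each slide held 4 arrays. Array position went largely with group, with all treated WT males at position 1 and all treated dKO females at position 4. Treated dKO and treated WT arrays shared no position. Probe names came through the design accession, and coordinates are mm9. The genes and lists were chosen with earlier results of these data known, so no list count is independent evidence. Named genes are the members, the 3 genes of closest pattern for each, up to 4 called genes of a list by size of change, some listed genes given in both genotypes, and chromosome neighbours; a few genes that meet this rule are not reported here. The alternatives changed background correction, normalization, filter, probe choice, outlier spots, slide, array position, the samples fitted, the replicate block and single arrays left out.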

Additional observations from a re-analysis of the deposited data

Results flagged for a closer look

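On 2 occasions in 30 groups of 4 arrays, 1 array lay apart from the other 3, with a gap to the nearest array above Dixon's critical share of the group's range for 4 arrays. Chance gives about 1 in 20 such groups. Pnliprp1 in replicate 3 of the untreated WT females was the highest of its group at -4.54, with a gap of 0.871 of the range. Duoxa1 in replicate 1 of the treated WT males was the lowest of its group at -3.63, with a gap of 0.896 of the range, against 2.38 to 3.08 in the other 3 males.

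For Ptges the genotype difference varied with sex in treated mice: dKO minus WT in males, minus the same in females, was -2.27 (limma, adjusted p = 0.0490). Both genotype differences were among the contrasts that chose the gene, and the call was lost under 18 of 28 alternatives. The cause was not tested.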

How the results depend on the processing

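Against 1869 genes called in untreated females, the count was 724 with normexp background, 2835 with only the arrays compared, 1183 with the slide blocked, 972 with a term for array position, and 1130 to 1773 with 1 array left out (1186 without WT replicate 1, 1130 without dKO replicate 4). Between the sexes in treated WT 1174 were called, against 512 with normexp, 484 with array position and 700 to 1127 with 1 array left out (700 without male replicate 4, 733 and 721 without female replicates 1 and 4). In treated dKO 3884 were called, against 2163 with normexp, 1104 with only the arrays compared, 1220 with array position and 2292 to 5989 with 1 array left out (2323, 5989 and 2292 without female replicates 2, 3 and 4). For sex by genotype 2376 were called, against 1235 with normexp, 1556 with no filter, 1387 with only the arrays compared, 700 with array position and 1468 to 4417 with 1 array left out (4417 and 1468 without dKO female replicates 3 and 4).

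Treatment differences were smaller with normexp (offset 50): in WT females 6.97 for Pnliprp1, 4.55 for Tmeff2, 3.59 for Ptges, 2.91 for Nebl and 1.59 for Duoxa1, and in dKO females 3.42 for Ptges, 2.41 for Nebl and -0.19 for Duoxa1. With quantile normalization Nebl gave 5.59 in WT and Duoxa1 -0.074 in dKO. The mean of a gene's probes gave 6.53 for Tmeff2 and 5.35 for Nebl in WT, and array position gave -0.85 for Pnliprp1 in dKO. The cause was not tested. Tmeff2 in untreated females passed under all 20 alternatives, at 1.49 with normexp and 4.41 with the replicate block. Under that block Duoxa1 between the sexes in treated WT (adjusted p = 0.0608) and Ptges for sex by genotype (0.0590) missed the threshold by limma, while Pnliprp1 between the sexes in treated dKO passed. With 1 array left out, macrophage markers higher with treatment ran between 1 and 7 in dKO and 4 and 7 in WT, and neutrophil markers between 1 and 4 in each. Prostaglandin genes higher with treatment ran between 4 and 7 in dKO and 2 and 6 in WT, and oxidase genes between 3 and 7 in dKO and 1 and 4 in WT. CAR targets ran between 10 and 15 in dKO, and bile duct markers in WT between 1 and 3. A term for array position left 1 bile duct marker and 1 prostaglandin gene called higher in dKO, and 0 macrophage, neutrophil, stellate cell, oxidase and CAR genes (limma, with 0, 5, 7, 1 and 7 at an unadjusted p under 0.05) and 0 hepatocyte markers lower (3 unadjusted). Of all 19040 genes the term left 123 higher (1743 unadjusted) and 146 lower (2136 unadjusted) in dKO. In WT the term left 4 bile duct, 3 macrophage, 3 neutrophil, 4 oxidase, 2 prostaglandin and 6 CAR genes higher, beside 1063 of all 19040 genes. In dKO females array position and treatment cannot be fully told apart. The cause was not tested. Signal near background limits the values of the 5 genes in untreated WT females.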
